A study of Danio rerio with 6 samples.

Results

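The antioxidant and glutathione genes of the zebrafish ventricle were the 72 genes, of 32520 in the count table, whose symbols begin with the names of the enzymes that remove superoxide and peroxides, that reduce thiols or that conjugate or make glutathione, or of the factors NFE2L2 and KEAP1 that regulate them. They fell into 13 families by symbol, from superoxide dismutases, catalase and glutathione peroxidases through peroxiredoxins, thioredoxins and glutaredoxins to glutathione S-transferases and heme oxygenases. Bulk RNA-Seq of poly(A) RNA compared ventricles of old fish (4 years) with those of young fish (7 months), both of the wild type (AB TU). Each age had 3 libraries, numbered 1, 3 and 5 for the old and 1, 2 and 5 for the young fish. The authors had picked these 3 samples per age from a larger number by their RNA integrity number, a measure of RNA quality. Whether a library came from a single ventricle or from a pool was not stated, so p-values measure only the spread between these libraries.

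Superoxide formed by mitochondria and by oxidases is turned into hydrogen peroxide by superoxide dismutases. Hydrogen peroxide is then removed by catalase, by glutathione peroxidases, which draw on glutathione, and by peroxiredoxins, which draw on thioredoxin. Glutathione S-transferases couple glutathione to reactive compounds, and the transcription factor NFE2L2, which KEAP1 marks for degradation, drives many of these genes under oxidative or electrophilic stress. Heart muscle is rich in mitochondria, a main source of superoxide.

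Of the 72 genes, 70 had at least 1 read in a library and were tested, and 2 (gpx2 and the copy of TXNRD2 with the ID ENSDARG00000094470) had none. A library's counts summed to between 17742389 and 22547518, and levels are given as CPM, counts scaled by the library's total and its TMM factor, which aligns the bulk of genes between libraries. A gene with 0 counts may have had up to 3 counts in a library, or 0.124 to 0.161 CPM, counting error only, and 7 genes did not exceed 3 counts in any library: gpx2, gpx9, gstk2, gstp1.1, the second copies of SOD3 (ENSDARG00000070168) and TXNIP (ENSDARG00000070000) and that of TXNRD2. These are given no fold change. Symbols are written as the name table has them, in capitals or not, and CPM are compared between ages for a gene and not between genes, since the counts are not scaled to transcript length.

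Most antioxidant genes had similar levels in old and young ventricles. In edgeR's quasi-likelihood test, with p adjusted by Benjamini-Hochberg over all genes tested and a threshold of 0.05, 1 antioxidant gene rose in old ventricles, the thioredoxin txnb, and 1 fell, the secreted glutathione peroxidase gpx3. These 2 were 2.86% of the 70, against 0.858% of the 24835 genes tested overall (0.519% higher and 0.338% lower in old ventricles). At an unadjusted p under 0.05, 6 genes were higher and 7 lower, together 18.6%, against 15.1% of all genes (8.64% and 6.5%). The 3 old libraries lay above the 3 young ones for 8 genes and below them for 7, together 21.4%, against 20% of all genes (10.4% and 9.66%). Both of the last shares were thus near those of all genes.

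The fitted fold change stayed under 1.5 either way for 48 of the 65 genes that exceeded 3 counts in a library, and reached 2 or more for 11. Of these 65 genes 25 had a log2 fold change (old over young) above 0 and 40 below, with a median of -0.10 (26 and 44 of all 70 tested), against a median of 0.02 and 51.3% above 0 for all genes tested. All genes tested include many with few reads. The 9037 well-read genes (at least 600 reads summed over the libraries) had a median of -0.07, near that of the antioxidant genes. The lean also depended on the scaling. Without TMM factors the median log2 fold change of the well-read genes moved to 0.11. Then 42 of the 65 antioxidant genes were above 0 and 23 below, with a median of 0.08. As a plain share of all counts, the 72 genes took 0.362% in old and 0.341% in young ventricles.

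**Figure D1:**
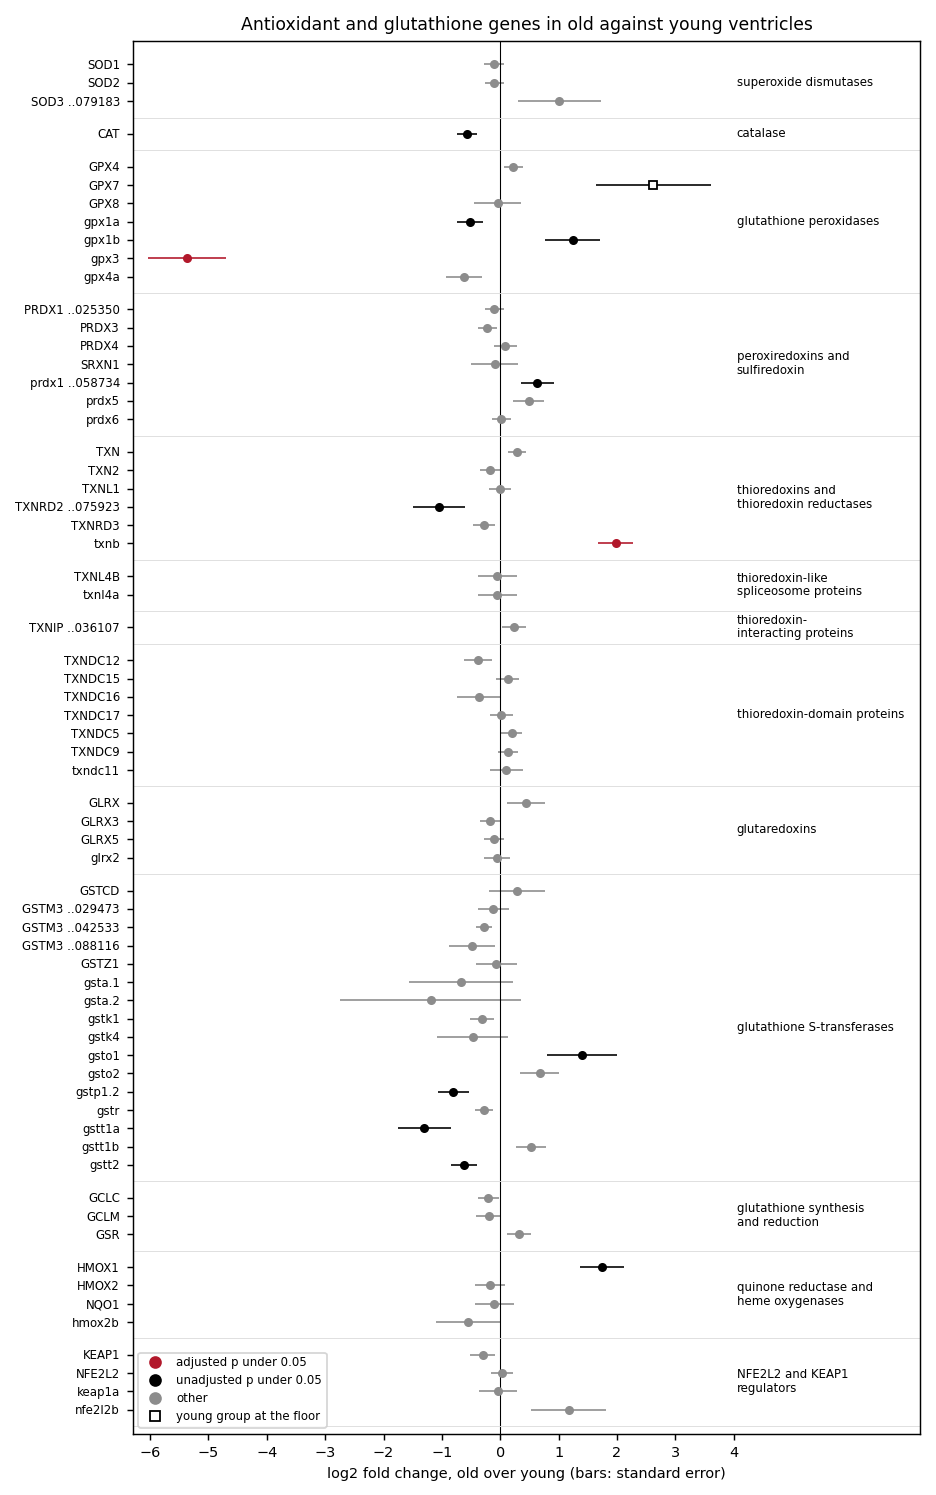
Log2 fold change, old over young, of the 65 antioxidant and glutathione genes that exceeded 3 counts in a library, ordered by family, with bars for the standard error. Most points lie near 0, with txnb (1.98) and gpx3 (-5.36), in red, as the 2 genes past the adjusted threshold, and the open square marks GPX7, whose young libraries had at most 1 count.

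No superoxide dismutase passed the test in edgeR, DESeq2 or limma-voom, or had an unadjusted p under 0.05. SOD2, the manganese enzyme of the mitochondrial matrix and the family's most read gene, had 249, 280 and 315 CPM in old ventricles, against 259, 309 and 340 CPM in young ventricles. The ranges overlapped almost wholly (log2 fold change -0.10, SE 0.16, adjusted p = 0.776 in edgeR's quasi-likelihood test, as for every adjusted p here unless another tool is named). The copper-zinc enzyme SOD1 of the cytosol averaged 60.6 ± 2.84 CPM in old and 65.4 ± 9.05 CPM in young ventricles (SD, n = 3 each). The copy of the extracellular enzyme SOD3 that was read (ENSDARG00000079183) had 8, 7 and 33 counts in old ventricles, against 4, 11 and 6 in young ventricles, so old library 5 alone stood higher.

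CAT, the peroxisomal catalase, had 40.1, 32.9 and 38.4 CPM in old ventricles, against 53.6, 53.1 and 58.7 CPM in young ventricles. All old libraries lay below all young ones, and the spread within each age was small. The log2 fold change was -0.57 (SE 0.17), with an unadjusted p of 0.00705 and an adjusted p of 0.149 in edgeR's quasi-likelihood test, so the difference did not pass the threshold. DESeq2's Wald test, which called 4.95% of all genes, gave an adjusted p of 0.0298. The direction was the same in all 15 alternative settings (of the scaling, the filter on low counts, the tool or the libraries), with log2 fold changes between -0.63 and -0.39.

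Of the glutathione peroxidases 1 fell and none rose. Of 7 that exceeded 3 counts in a library, 3 had a log2 fold change above 0 and 4 below, and the family included both the most changed antioxidant gene and several with like levels at both ages. gpx3 (ENSDARG00000043342), whose product is secreted in mammals and reduces peroxides in plasma, had 0, 6 and 7 counts in old ventricles, against 122, 219 and 173 counts in young ventricles. In CPM these were 0, 0.32 and 0.29 in old ventricles, against 6.11, 10.6 and 8.83 in young ventricles. It was close to the limit of detection in every old library and clearly read in every young one. The log2 fold change was -5.36 (SE 0.67, adjusted p = 0.0113 in edgeR's quasi-likelihood test, Benjamini-Hochberg adjusted). The call held in 14 of 15 alternatives and was lost without young replicate 2 (adjusted p = 0.102), where 19 genes in all passed. In bulk tissue, fewer cells of a type that makes a transcript and less of it per cell cannot be told apart.

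The other peroxidases did not pass the test. gpx1a, one of the cytosolic selenoenzymes, had 93.0, 66.7 and 64.8 CPM in old ventricles, against 116, 82.5 and 123 CPM in young ventricles (log2 fold change -0.52, SE 0.22, adjusted p = 0.297, same test). Old library 1 lay above young library 2, so the ages overlapped. Its sister gene gpx1b, read far less, had 38, 16 and 29 counts in old ventricles, against 12, 11 and 9 counts in young ventricles. Here every old library was above every young one (log2 fold change 1.24, SE 0.47, adjusted p = 0.247, same test).

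GPX4, which reduces lipid hydroperoxides within membranes and had the family's highest CPM, had 123, 116 and 139 CPM in old ventricles, against 106, 118 and 99.1 CPM in young ventricles (log2 fold change 0.23, SE 0.16, adjusted p = 0.554, edgeR's quasi-likelihood test). Its sister gpx4a had 41.5, 18.7 and 17.8 CPM in old ventricles, against 39.7, 39.96 and 40.3 CPM in young ventricles. The young libraries were almost identical, old libraries 3 and 5 were far below them and old library 1 was not. With all libraries the log2 fold change was -0.62 (SE 0.31, adjusted p = 0.394, same test), and without old replicate 1 it was -1.13 (SE 0.20, adjusted p = 0.0231), so 1 library decided the call. GPX7, a peroxidase of the endoplasmic reticulum, had 5, 6 and 4 counts in old ventricles, against 0, 1 and 1 counts in young ventricles (adjusted p = 0.244, same test). With the young group set at 3 counts per library, the old mean was 1.59 times the young level. The counting error of the few old counts is left out of that value, so it is no firm minimum. GPX8, also of the endoplasmic reticulum, averaged 1.21 ± 0.23 CPM in old and 1.24 ± 0.25 CPM in young ventricles (SD, n = 3 each).

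**Figure D2:**
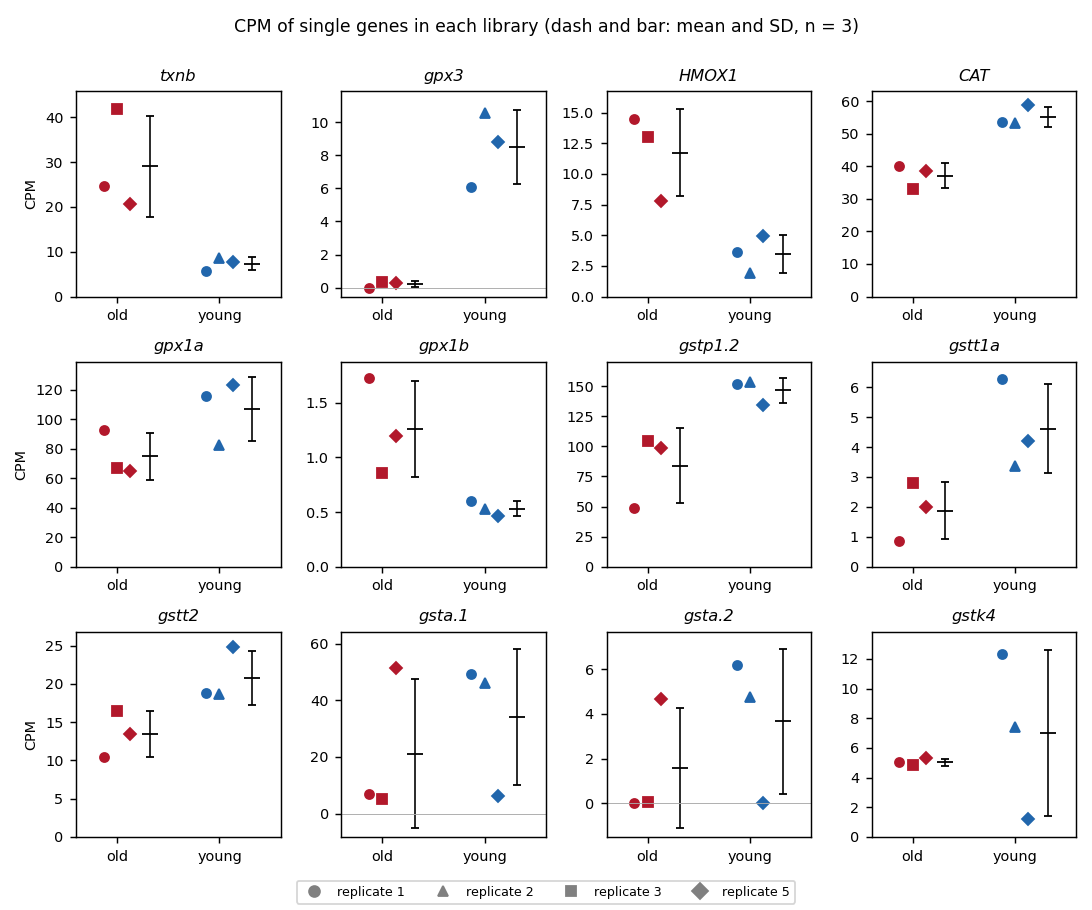
CPM of 12 antioxidant and glutathione genes in each library, with old (red) left of young (blue), a marker shape for each replicate number and the mean with its SD (n = 3). txnb, HMOX1 and gpx1b lie higher and gpx3, CAT, gstp1.2, gstt1a and gstt2 lower in every old library. gsta.1 and gsta.2 are high in old library 5 and in young libraries 1 and 2.

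Peroxiredoxins, the thiol peroxidases, and SRXN1, the sulfiredoxin that restores them when over-oxidized, had 4 of 7 log2 fold changes above 0, and none passed the test (1 was higher at an unadjusted p under 0.05, and 0 passed in DESeq2 or limma-voom). PRDX1 (ENSDARG00000025350), the most read, had 216, 162 and 172 CPM in old ventricles, against 192, 194 and 205 CPM in young ventricles (log2 fold change -0.10, SE 0.16, adjusted p = 0.780 in edgeR's quasi-likelihood test). The old libraries lay on both sides of the young ones. A second gene, prdx1 (ENSDARG00000058734), had 5.94, 4.87 and 5.66 CPM in old ventricles, against 2.65, 3.82 and 4.14 CPM in young ventricles. Every old library was above every young one, by a modest amount (log2 fold change 0.63, SE 0.28, adjusted p = 0.323, same test). prdx5 had 184, 130 and 171 CPM in old ventricles, against 124, 149 and 71.8 CPM in young ventricles, with young library 5 the lowest and an overlap between the ages. The mitochondrial PRDX3, PRDX4 of the endoplasmic reticulum, prdx6 and SRXN1 had log2 fold changes between -0.22 and 0.09.

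Among thioredoxins, small proteins that pass electrons to peroxiredoxins and other targets, txnb (ENSDARG00000044125) rose. It had 543, 780 and 501 counts in old ventricles, against 115, 177 and 152 counts in young ventricles. It averaged 29.0 ± 11.2 CPM in old and 7.36 ± 1.44 CPM in young ventricles (SD, n = 3 each). The lowest old library, at 20.7 CPM, was well above the highest young one, at 8.55 CPM. The log2 fold change was 1.98 (SE 0.30, adjusted p = 0.0234 in edgeR's quasi-likelihood test, Benjamini-Hochberg adjusted). Its direction was the same in all 15 alternatives, with log2 fold changes between 1.62 and 2.17. The call was lost without young replicate 1 (adjusted p = 0.102), 2 (0.128) or 5 (0.0674), with at least 10 reads summed (0.060), in limma-voom (0.0561) and with the replicate number as a block (0.0911).

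The other thioredoxin genes differed less between the ages. TXN, the more abundantly read relative of txnb, had 177, 170 and 164 CPM in old ventricles, against 127, 158 and 133 CPM in young ventricles. All old libraries were above all young ones, but the difference was small (log2 fold change 0.29, SE 0.16, adjusted p = 0.428, edgeR's quasi-likelihood test). TXN2, the mitochondrial thioredoxin, averaged 75.5 ± 10.4 CPM in old and 85.0 ± 10.6 CPM in young ventricles (SD, n = 3 each). The reductase TXNRD2 (ENSDARG00000075923), which recharges mitochondrial thioredoxin in mammals, had 17, 16 and 13 counts in old ventricles, against 40, 22 and 28 counts in young ventricles. Every old library was below every young one at these low counts (log2 fold change -1.05, SE 0.45, adjusted p = 0.305, same test). TXNRD3, the reductase with the most reads, averaged 89.0 ± 15.9 CPM in old and 108 ± 12.99 CPM in young ventricles (SD, n = 3 each), with an overlap.

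No thioredoxin-like or thioredoxin-domain gene passed the test or had an unadjusted p under 0.05. TXNIP (ENSDARG00000036107), an inhibitor of thioredoxin, had 319, 366 and 236 CPM in old ventricles, against 232, 227 and 321 CPM in young ventricles, a wide overlap (log2 fold change 0.24, SE 0.21, adjusted p = 0.618, edgeR's quasi-likelihood test). The 7 thioredoxin-domain genes, among them TXNDC5 of the endoplasmic reticulum, had log2 fold changes between -0.38 and 0.20. Their most read gene, TXNDC9, had 75.6, 73.7 and 81.3 CPM in old ventricles, against 59.8, 74.8 and 75.7 CPM in young ventricles. The spliceosome protein txnl4a, in the set by its symbol alone, had 20.8, 9.80 and 9.42 CPM in old ventricles, against 10.9, 17.4 and 13.2 CPM in young ventricles, so old library 1 was the highest and the other old ones the lowest (log2 fold change -0.05, SE 0.33). Glutaredoxins, which reduce glutathione-bound proteins or, like the mitochondrial GLRX5, carry iron-sulfur clusters, did not pass the test either, with log2 fold changes between -0.17 and 0.44. GLRX5 had 98.8, 96.8 and 96.4 CPM in old ventricles, against 87.5, 107 and 119 CPM in young ventricles, and the old libraries lay within the young range.

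Glutathione S-transferases made up the largest family, with 18 genes, and none passed the test in edgeR, DESeq2 or limma-voom (1 was higher and 3 lower at an unadjusted p under 0.05). Of the 16 that exceeded 3 counts in a library 4 had a log2 fold change above 0 and 12 below, with a median of -0.30. Their summed level was 848, 910 and 977 CPM in old ventricles, against 1120, 1256 and 1083 CPM in young ventricles, without overlap and 0.79 times as high in old ventricles. Without TMM factors the sums overlapped, the ratio was 0.89, and 6 genes were above 0 and 10 below. Without young replicate 1, 8 were above 0 and 8 below.

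gstr, the rho-class enzyme of fishes with the most reads of all antioxidant genes, had 384, 442 and 448 CPM in old ventricles, against 447, 560 and 536 CPM in young ventricles. Old library 5 just exceeded young library 1 (log2 fold change -0.28, SE 0.15, adjusted p = 0.428, edgeR's quasi-likelihood test). The pi-class gstp1.2 had 48.4, 105 and 98.5 CPM in old ventricles, against 152, 153 and 135 CPM in young ventricles. Every old library was below every young one, with old library 1 the lowest (log2 fold change -0.80, SE 0.27, adjusted p = 0.196, same test). The 3 genes the name table calls GSTM3, mu-class enzymes, had log2 fold changes of -0.12, -0.28 and -0.48. Of these the most read (ENSDARG00000042533) had 150, 153 and 158 CPM in old ventricles, against 194, 191 and 173 CPM in young ventricles, also without overlap.

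No theta-class gene passed the test, and their log2 fold changes had either sign. gstt1a had 0.861, 2.78 and 1.98 CPM in old ventricles, against 6.26, 3.38 and 4.19 CPM in young ventricles (log2 fold change -1.299, SE 0.45, adjusted p = 0.210, edgeR's quasi-likelihood test). gstt2 had 10.4, 16.5 and 13.5 CPM in old ventricles, against 18.8, 18.7 and 24.8 CPM in young ventricles (log2 fold change -0.62, SE 0.23, adjusted p = 0.236, same test). For both, each old library was below each young one. gstt1b had 10.3, 10.6 and 18.01 CPM in old ventricles, against 9.21, 8.70 and 9.19 CPM in young ventricles, with every old library above every young one (log2 fold change 0.52, SE 0.25, adjusted p = 0.374, same test). The omega-class gsto1 had 11, 27 and 53 counts in old ventricles, against 13, 7 and 11 counts in young ventricles, so old library 1 overlapped the young ones (log2 fold change 1.41, SE 0.60, adjusted p = 0.307, same test). Its neighbour gsto2 averaged 17.0 ± 5.22 CPM in old and 10.7 ± 4.099 CPM in young ventricles (SD, n = 3 each).

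**Figure D3:**
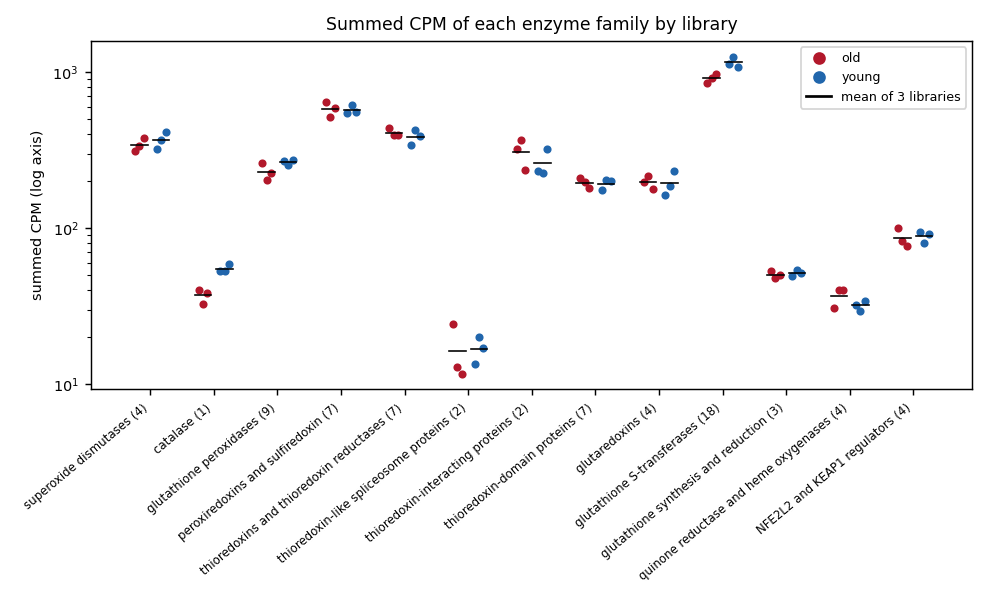
Summed CPM of each family in each library on a log axis, with old (red) left of young (blue), lines at the mean of 3 libraries and the number of genes in parentheses. With TMM scaling, as plotted, old and young sums do not overlap for catalase and the glutathione S-transferases, both lower in old ventricles. Without TMM factors catalase stays apart, the transferases overlap, and the sums of 3 families (thioredoxins and their reductases, thioredoxin-domain proteins, and the quinone reductase with the heme oxygenases) lie higher in every old library.

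The genes that make and recycle glutathione did not pass the test in edgeR, DESeq2 or limma-voom, and none had an unadjusted p under 0.05. GCLC, the catalytic subunit of the rate-limiting enzyme of glutathione synthesis, had 16.5, 18.1 and 18.6 CPM in old ventricles, against 20.9, 21.9 and 18.5 CPM in young ventricles (log2 fold change -0.20, SE 0.18, adjusted p = 0.618, edgeR's quasi-likelihood test). GCLM, its modifier subunit, averaged 15.3 ± 2.80 CPM in old and 17.6 ± 2.79 CPM in young ventricles (SD, n = 3 each). For both subunits the ages overlapped. GSR, which reduces oxidized glutathione, had 18.8, 13.7 and 19.3 CPM in old ventricles, against 14.4, 13.1 and 13.8 CPM in young ventricles (log2 fold change 0.32, SE 0.20, adjusted p = 0.501, same test).

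HMOX1, the inducible heme oxygenase that breaks heme into biliverdin, iron and carbon monoxide, had 14.5, 13.01 and 7.77 CPM in old ventricles, against 3.65, 1.88 and 4.95 CPM in young ventricles. It averaged 11.7 ± 3.52 CPM in old and 3.497 ± 1.54 CPM in young ventricles (SD, n = 3 each), and every old library was above every young one. The log2 fold change was 1.75 (SE 0.38), with an unadjusted p of 0.00109 and an adjusted p of 0.0741 in edgeR's quasi-likelihood test, just short of the threshold. It passed in 3 of 15 alternatives: without TMM factors (adjusted p = 0.0496), without old replicate 5 (0.0426) and in DESeq2's Wald test (0.00178). The constitutive HMOX2 had 14.0, 22.8 and 28.5 CPM in old ventricles, against 24.4, 23.7 and 25.8 CPM in young ventricles, with the old libraries spread around the young ones (log2 fold change -0.18, SE 0.25). NQO1, a quinone reductase and a classic target of NFE2L2, averaged 3.03 ± 0.90 CPM in old and 3.25 ± 0.28 CPM in young ventricles (SD, n = 3 each).

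The regulators did not pass the test in edgeR, DESeq2 or limma-voom, and none had an unadjusted p under 0.05. NFE2L2 itself had 67.9, 57.5 and 50.5 CPM in old ventricles, against 65.3, 54.7 and 52.4 CPM in young ventricles, almost the same values (log2 fold change 0.03, SE 0.18, adjusted p = 0.963, edgeR's quasi-likelihood test). nfe2l2b, the second copy, had 10, 10 and 20 counts in old ventricles, against 2, 6 and 8 counts in young ventricles, low counts with every old library above every young one (log2 fold change 1.17, SE 0.65, adjusted p = 0.441, same test). KEAP1 had 13.5, 15.4 and 17.4 CPM in old ventricles, against 16.7, 16.5 and 23.6 CPM in young ventricles. keap1a had 18.1, 8.94 and 8.80 CPM in old ventricles, against 12.4, 9.04 and 15.4 CPM in young ventricles, with old library 1 high as for txnl4a and gpx4a. Their log2 fold changes were -0.30 (SE 0.21) and -0.04 (SE 0.33).

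In zebrafish many of these enzymes are encoded by pairs of related genes, and the balance within a pair was read off each library as the ratio of their counts, which needs no scaling between libraries. For 5 of 10 pairs the 3 old ratios did not overlap the 3 young ones. The pairs were chosen after their values were seen, and they hold genes given above as lying apart by age. They are given without a test. The share over other pairs of genes was not computed, so the count says nothing about pairs in general. Of all single genes tested, 20% did not overlap in CPM, which is another measure and no baseline for these ratios. The log2 ratio of txnb to TXN averaged -2.62 ± 0.52 in old and -4.26 ± 0.18 in young ventricles (SD, n = 3 each). That of gpx1b to gpx1a averaged -5.93 ± 0.30 in old and -7.65 ± 0.40 in young ventricles, and that of prdx1 to PRDX1 -5.06 ± 0.13 in old and -5.82 ± 0.31 in young ventricles. In these 3 pairs the gene with fewer reads took a larger share in old ventricles.

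The ratio leaned the other way for gstt1a to gstt1b, with a mean log2 ratio of -2.90 ± 0.86 in old and -1.02 ± 0.41 in young ventricles (SD, n = 3 each). For gpx4a to GPX4 it was -2.39 ± 0.73 in old and -1.43 ± 0.13 in young ventricles, and old library 1 (-1.562) all but met young library 2 (-1.560). The pairs keap1a and KEAP1, nfe2l2b and NFE2L2, gsto1 and gsto2, gsta.2 and gsta.1, and hmox2b and HMOX2 overlapped. Reads that mapped to several places had been discarded, so the counts of near-identical copies are uncertain.

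**Figure D4:**
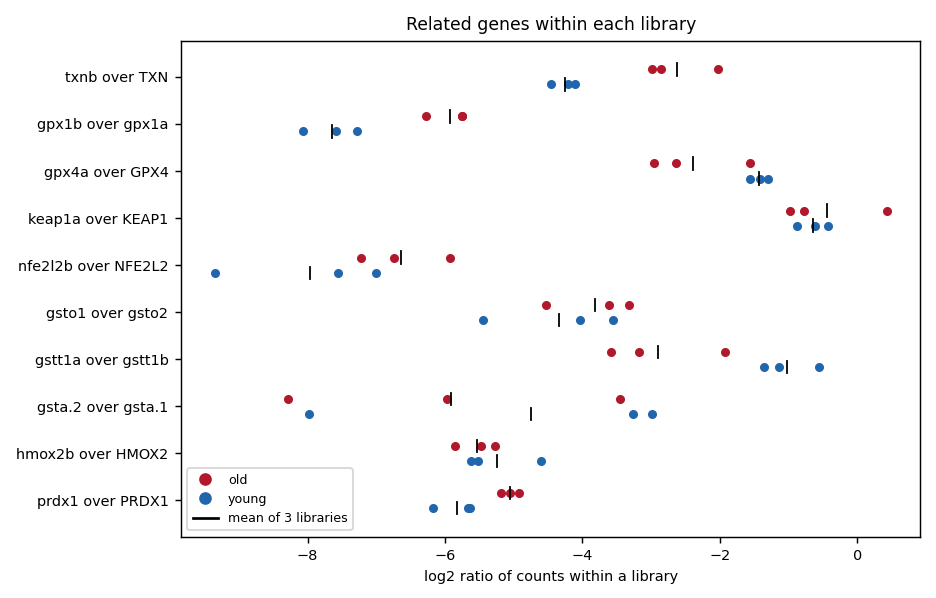
Log2 ratio of the counts of 2 related genes within each library, with old (red) above young (blue) for each pair and a line at the mean of 3 libraries. The old and young ratios lie apart for txnb over TXN, gpx1b over gpx1a, gstt1a over gstt1b and prdx1 over PRDX1, and nearly touch for gpx4a over GPX4.

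Genes around these enzymes were read from lists by function, without the 72 genes of the set. Symbols were found for 15 of 17 NADPH genes, 19 of 27 glutathione genes and 25 of 41 NFE2L2 pathway genes. For the superoxide sources below it was 16 of 18, and the other symbols were not read. Over all genes tested, 8.64% were higher and 6.5% lower at an unadjusted p under 0.05 in edgeR's quasi-likelihood test. Among 15 genes that supply NADPH, the electron source of both the glutathione and the thioredoxin systems, 8 had a log2 fold change above 0 and 7 below, and none passed the test (at an unadjusted p under 0.05, 0 were higher and 2 lower, and DESeq2 and limma-voom called 0). Of 19 further glutathione genes (transport, synthesis and breakdown) 7 were above 0 and 12 below, and none passed (2 higher and 0 lower at an unadjusted p under 0.05, and 1 higher in DESeq2). Of 24 further genes of the NFE2L2 pathway 11 were above 0 and 13 below, and none passed (0 higher and 4 lower at an unadjusted p under 0.05, and 1 lower in DESeq2). The medians were 0.02, -0.08 and -0.06, against 0.02 for all genes tested and -0.07 for the 9037 well-read genes. These counts and medians include genes that did not exceed 3 counts in a library, 3 of the 19 and 2 of the 24. NFE2 of the NFE2L2 pathway list, lower in every old library, is also one of the thrombocyte markers described below.

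Among genes for sources of superoxide and peroxide, 10 of 15 tested had a log2 fold change above 0 and 5 below, 3 of the 15 did not exceed 3 counts in a library, and 1 rose. At an unadjusted p under 0.05, 6 were higher and 2 lower, and DESeq2 called 4 higher and 1 lower. NCF1 (ENSDARG00000033735), a subunit of the oxidase with which phagocytes make superoxide, had 9.74, 4.82 and 11.9 CPM in old ventricles, against 1.90, 1.64 and 1.58 CPM in young ventricles. Old library 3 was the lowest of the old ones, at 4.82 CPM, and the highest young one was at 1.90 CPM (log2 fold change 2.37, SE 0.36, adjusted p = 0.0256, edgeR's quasi-likelihood test). The call was lost without young replicate 1 (adjusted p = 0.103), 2 (0.158) or 5 (0.0755), in limma-voom (0.0790) and with at least 10 reads summed (0.060). Lower in every old library were aox6, an aldehyde oxidase, and mao, the monoamine oxidase, named after their values were seen. aox6 had 4.03, 5.67 and 7.07 CPM in old ventricles, against 20.7, 22.4 and 10.4 CPM in young ventricles (log2 fold change -1.67, SE 0.33, adjusted p = 0.0561, same test), and mao had a log2 fold change of -0.53 (SE 0.22, adjusted p = 0.285). NCF1 is also one of the leukocyte markers described next.

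Markers of other cell types were read in the same libraries. Over all genes tested, edgeR's quasi-likelihood test called 0.519% higher and 0.338% lower, and DESeq2 called 4.95%. A log2 fold change above 0 was found for 51.3%, and 10.4% had every old library above every young one. Symbols were found for 16 of 22 leukocyte, 11 of 16 erythrocyte, 8 of 14 cardiomyocyte and 4 of 9 bulbus markers. For atrial markers it was 3 of 5 and for endothelial 8 of 10, and 1 symbol could name several genes. Of 16 leukocyte markers 15 had a log2 fold change above 0 and 2 rose (LCP1 and NCF1). Their summed level was 1055, 320 and 800 CPM in old ventricles, against 292, 227 and 171 CPM in young ventricles. All of 11 erythrocyte markers were below 0 and 2 fell (gata1a and hbaa1), with a summed level of 494, 586 and 495 CPM in old ventricles, against 2672, 945 and 1377 CPM in young ventricles. Of 8 thrombocyte markers 6 were below 0 and 1 fell (gp9), and of 8 cardiomyocyte markers 6 were below 0 and 1 fell (SMPX). In limma-voom gp9 alone of these markers passed, whereas DESeq2 called 9 leukocyte markers higher and 6 erythrocyte, 2 thrombocyte and 1 cardiomyocyte markers lower. Of 5 smooth muscle markers of the bulbus 4 were above 0, 3 with every old library above every young one, and none passed (2 did in DESeq2). Of 8 endothelial markers 7 were below 0 and none passed. Above 0 were 5 of 6 neutrophil, 4 of 10 epicardial and fibroblast, 4 of 7 adipocyte and 7 of 11 hepatocyte markers. None of these passed, and DESeq2 called 1 hepatocyte marker higher. Of the neutrophil, adipocyte and hepatocyte markers, 1, 2 and 5 did not exceed 3 counts in a library. Symbols were found for 5 of 8 neutrophil, 10 of 11 epicardial and fibroblast, 6 of 8 adipocyte and 11 of 12 hepatocyte markers. The hepatocyte sum was 11.1, 10.1 and 40.2 CPM in old ventricles, against 5.61, 6.38 and 6.54 CPM in young ventricles. Most of it was the single gene tfa, with 10.3, 7.87 and 38.1 CPM in old ventricles, against 3.91, 6.23 and 5.72 CPM in young ventricles. The ages overlapped for fabp10a, with 8, 5 and 7 counts in old ventricles, against 4, 1 and 8 counts in young ventricles. The adipocyte sum was 685, 567 and 498 CPM in old ventricles, against 720, 780 and 830 CPM in young ventricles. Most of it was fabp4a, with 580, 475 and 301 CPM in old ventricles, against 527, 583 and 530 CPM in young ventricles. CIDEC went the other way, with 5, 20 and 28 counts in old ventricles, against 2, 4 and 4 counts in young ventricles. plin1 and lepb had at most 1 count in a library, so the sum does not measure adipocyte number. The neutrophil gene lyz had 0.816, 0.910 and 29.5 CPM in old ventricles, so old library 5 alone stood high. Of 5 atrial markers 1 was above 0 and 4 below, and none passed (1 was called higher in DESeq2). The myosin gene myh6 (ENSDARG00000090637) had 30.2, 8.83 and 30.9 CPM in old ventricles, against 301, 8.89 and 6.13 CPM in young ventricles. Young library 1 stood apart for myh6, but not for nppa, NR2F2 or MYH6 (ENSDARG00000079564). These genes were matched by symbol alone, and whether each is particular to the atrium was not tested. Their levels thus cannot decide whether young library 1 held atrial tissue. For nppa the young libraries had 2657, 4365 and 2432 CPM. The marker above 0, MYH6 (ENSDARG00000114031), had 8, 24 and 16 counts in old ventricles, against 2, 2 and 1 counts in young ventricles. The cardiomyocyte markers were read at 46278 to 58008 CPM in old and 46999 to 67227 CPM in young ventricles, and the share of counts from 13 mitochondrial genes was 11.3 to 13.9% in old and 14.9 to 17.9% in young ventricles.

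For txnb, HMOX1 and the leukocyte sum, every old library was above every young one. Among the old libraries, txnb was highest in library 3, where the leukocyte sum was the lowest. HMOX1 was highest in old library 1, where that sum was the highest. It was also higher in old library 3 than in old library 5, where the sum was larger. Most of the leukocyte sum came from cd74a, cd74b and marco. Among the old libraries, NCF1 and NCF4 were highest in library 5 and the other listed leukocyte markers in library 1. For gpx3 and the erythrocyte sum, every old library was below every young one. Of the young libraries gpx3 was lowest in young library 1, where the erythrocyte sum was the highest. The order of so few libraries cannot decide what part cell types had. The part of cell composition in the differences of txnb, gpx3, HMOX1 and the glutathione S-transferases was not tested.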

How the data were processed

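Ventricle RNA of 3 old and 3 young zebrafish libraries was sequenced after poly(A) selection with a stranded kit. The authors demultiplexed with bcl2fastq 2.20.0.422, aligned to GRCz11 with STAR 2.5.4b and used featureCounts 1.6.3 to count, by strand, reads with a unique place in the genome. The deposited values are raw counts of 32520 Ensembl genes, and 0 library columns were left out. A name table gave symbols for 29201 genes.

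Genes needed 1 read or more in a library (24835 genes). They were scaled by TMM and tested with the quasi-likelihood functions of edgeR 4.0.16 (R 4.3.3), with age as the only factor, default deviances and Benjamini-Hochberg adjustment over all genes (threshold 0.05). CPM use total counts times the TMM factor. Standard errors were derived from the fold change and its test statistic. The test was tested on simulated data. The alternatives were RLE size factors, library size only, at least 10 reads summed, filterByExpr, bias-adjusted deviances, robust fitting, the replicate number as a block, each library left out, DESeq2 1.42.0 and limma-voom (limma 3.58.1). Tables and figures used Python 3.11.15, pandas 2.3.3 and matplotlib 3.10.9.

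Genes were named when called, when their unadjusted p was under 0.05, as the most read of a family, as a regulator or as GCLC, GCLM or GSR. Further members, and the related pairs, were named after their values were seen. The set and the lists were chosen with earlier results of these data known. Neighbouring genes were read from RefSeq (GRCz12tu). Promoter and protein sequences were not analysed here.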

Additional observations from a re-analysis of the deposited data

How the results depend on the processing

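The single higher call (txnb) became 2 with HMOX1 under library size only and in DESeq2, and 0 with at least 10 reads summed, in limma-voom and with the replicate number as a block. The single lower call (gpx3) became 2 with CAT in DESeq2. Leaving out each replicate in turn gave 0 to 2 higher and 0 to 2 lower calls and 8 to 13 genes with an unadjusted p under 0.05, against 13 with all. With the block, 7 genes had an unadjusted p under 0.05 and the median log2 fold change was -0.0504, while library size only gave 0.0810. Whether the 2 shared replicate numbers pair the libraries was not stated. The deviations of same-numbered libraries correlated with -0.09 (number 1) and 0.05 (number 5), against -0.21 to 0.34 for libraries of unlike number. With so few libraries this cannot decide whether they were paired. Over all genes, 213 were called, against 65 with at least 10 reads summed, 111 with filterByExpr or bias-adjusted deviances, 94 in limma-voom, 126 with the block, 1229 in DESeq2 and between 19 (without young replicate 2) and 412 (without old replicate 1) with a library left out.

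Of 448 values of the 30 named genes over 15 alternatives, 419 kept direction and call. Directions turned for genes close to 0. Under library size only the log2 fold changes were 0.0831 for SOD2, 0.0785 for PRDX1, 0.13 for txnl4a, 0.0827 for GLRX5, 0.0013 for HMOX2 and 0.14 for keap1a. With the block txnl4a was 0.23. With each replicate left out in turn, the range was -0.5236 to 0.1507 for txnl4a, -0.2125 to 0.00073 for GLRX5, -0.4225 to 0.0581 for HMOX2, -0.0903 to 0.1363 for NFE2L2 and -0.47 to 0.1572 for keap1a. The cause was not tested. Depth limits gpx1b, GPX7, TXNRD2, gsto1 and nfe2l2b most, with at most 53 counts in a library.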

Other observations

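Some glutathione genes varied more between libraries of the same age than between the ages. Among 57 antioxidant genes with at least 10 counts in every library, the highest and lowest old library differed by a median of 1.41-fold and the young ones by a median of 1.33-fold. The alpha-class transferase gsta.1 was the 1 gene with more than a 5-fold range among old libraries, with 7.07, 5.03 and 51.4 CPM in old ventricles, against 49.3, 46.2 and 6.38 CPM in young ventricles. Its near neighbour gsta.2, with 1 coding gene between them in RefSeq, had 0, 1 and 113 counts in old ventricles, against 124, 99 and 0 counts in young ventricles. Both genes were thus high in old library 5 and young libraries 1 and 2 and low in the others, irrespective of age. gstk4, of the kappa class, had 5.03, 4.82 and 5.29 CPM in old ventricles, against 12.4, 7.44 and 1.17 CPM in young ventricles, and so varied among the young libraries, while its neighbour gstk1 had 181, 125 and 121 CPM in old ventricles, against 161, 213 and 158 CPM in young ventricles. These genes were picked for their spread and are given without a test.

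The other subunits of the phagocyte oxidase, picked after their values were seen, leaned the way NCF1 did without passing the adjusted threshold. The membrane subunit cybb had 10.8, 3.27 and 10.3 CPM in old ventricles, against 3.00, 2.80 and 2.04 CPM in young ventricles (log2 fold change 1.64, SE 0.43, adjusted p = 0.122, edgeR's quasi-likelihood test). Its partner cyba had 12.3, 6.26 and 9.09 CPM in old ventricles, against 3.55, 4.98 and 3.98 CPM in young ventricles (log2 fold change 1.14, SE 0.30, adjusted p = 0.116, same test). For both, old library 3 was the lowest old one, as it was for the summed leukocyte markers, a list that holds cybb itself. The part of leukocyte number in these values was not tested.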
